A study of Mus musculus with 6 samples.

Results

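The genes described here are the T cell coreceptors Cd4, Cd8a and Cd8b1 and 6 transcription factors of T cell lineages, Tcf7, Foxp3, Ikzf2, Tbx21, Gata3 and Maf. They were chosen by symbol and make up 9 of the 55401 gene identifiers in the deposited table. All 9 were found and all 9 passed the filter on low counts. Polyadenylated RNA of the lacrimal gland, the main source of tear fluid, was sequenced from 3 NOD/Ltj samples and 3 ICR samples, with 1 library each. NOD/Ltj is an inbred mouse strain that develops autoimmune inflammation of exocrine glands and is the disease model of the study, which asks about primary Sjögren's syndrome. The control strain, ICR, is outbred. The labels give no treatment, age or sex for either strain, and whether the 3 samples of a strain are 3 animals is not stated.

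CD4 and CD8 are coreceptors that bind MHC class II and class I molecules beside the T cell receptor and bring the kinase Lck to it. CD8 is either a dimer of the CD8α chain alone or a dimer of the α and β chains, encoded by Cd8a and Cd8b1. Conventional cytotoxic T cells carry the mixed dimer, while some dendritic cells, innate-like T cells and gut lymphocytes carry the α chain alone. Lineage factors direct the fate of the cells that carry these coreceptors. TCF1, encoded by Tcf7, marks T cell identity and naive or memory-like cells. Foxp3 directs regulatory T cells, in which Helios, encoded by Ikzf2, is also found. T-bet, encoded by Tbx21, directs the Th1 type, GATA3 the Th2 type, and c-Maf is used by Th17, follicular helper and interleukin-10-producing T cells. Several of these factors are used outside T cells too, GATA3 in epithelia and innate lymphoid cells, and c-Maf in macrophages.

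Library totals ran from 62318534 to 64000969 estimated counts in NOD/Ltj and from 58426580 to 76554340 in ICR. Levels are given as CPM, counts per 1000000 of the library size after TMM scaling. A sequenced fragment was taken as about 4 counts, so a level under about 0.2 CPM stands for fewer than 4 fragments. A count of 0 allows up to 12 counts at 95% confidence, which is 0.173, 0.194 and 0.21 CPM in ICR 1, 2 and 3. Such limits and intervals cover counting error only and rest on the assumed 4 counts per fragment. The threshold throughout was an adjusted p of 0.05, which 349 of 18537 genes passed as higher and 67 as lower in NOD/Ltj (edgeR). The library ICR 1 stood apart. The 10 macrophage markers summed to 156, 243 and 149 CPM in NOD/Ltj 1, 2 and 3 and to 332, 64.9 and 91.9 CPM in ICR 1, 2 and 3. Some values that turn or move by over 1.5 times without ICR 1 are given without it too. The summed chains Cd3d, Cd3e and Cd3g of the T cell receptor complex, used below as the measure of T cell RNA, stood at 11.4, 28.4 and 23.6 CPM in NOD/Ltj 1, 2 and 3, against 0.65, 1.02 and 0.996 CPM in ICR 1, 2 and 3. The means of these sums differed 23.8-fold. In RNA of whole glands, fewer cells of a type and less RNA per cell cannot be told apart.

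The start regions of Foxp3, Cd8a and Tbx21 are shown because these genes stand for the regulatory, cytotoxic and Th1 fates compared here. RefSeq's table for GRCm38.p6 matched 5 of the 9 genes by symbol, with 7 start sites, and each sequence covers 250 bases before to 50 bases after a start. Foxp3 has an upstream start (chrX:7579426-7579725, plus strand) and a downstream one (chrX:7580233-7580532, plus strand). Cd8a lies at chr6:71373177-71373476 (plus strand) and Tbx21 at chr11:97115282-97115581 (minus strand). Capitals mark matches, on either strand, to 8 short motifs: AGGAAG for ETS factors, GGAAAA for NFAT factors, TGANTCA for AP-1, TGTGGT for Runx factors, CTTTGA for TCF/LEF factors, AGATAA for the GATA family, GGTGTGA for T-box factors and TTCNNNGAA for STAT factors.
Foxp3 upstream: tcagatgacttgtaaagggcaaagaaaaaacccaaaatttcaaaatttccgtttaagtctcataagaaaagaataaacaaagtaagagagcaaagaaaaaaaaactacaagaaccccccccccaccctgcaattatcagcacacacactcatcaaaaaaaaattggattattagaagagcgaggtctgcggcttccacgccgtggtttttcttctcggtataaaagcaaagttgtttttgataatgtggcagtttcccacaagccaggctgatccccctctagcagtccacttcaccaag
Foxp3 downstream: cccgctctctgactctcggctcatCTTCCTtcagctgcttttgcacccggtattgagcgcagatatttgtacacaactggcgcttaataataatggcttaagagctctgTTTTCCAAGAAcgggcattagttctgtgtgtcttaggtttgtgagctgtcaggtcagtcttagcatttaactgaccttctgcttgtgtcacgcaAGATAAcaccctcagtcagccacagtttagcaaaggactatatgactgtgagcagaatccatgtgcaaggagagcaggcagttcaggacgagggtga
Cd8a: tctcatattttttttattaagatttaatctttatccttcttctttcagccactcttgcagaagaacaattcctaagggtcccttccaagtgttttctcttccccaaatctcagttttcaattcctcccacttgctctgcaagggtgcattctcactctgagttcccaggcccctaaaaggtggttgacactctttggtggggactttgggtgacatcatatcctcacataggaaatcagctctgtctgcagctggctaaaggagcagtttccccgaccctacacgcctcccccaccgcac
Tbx21: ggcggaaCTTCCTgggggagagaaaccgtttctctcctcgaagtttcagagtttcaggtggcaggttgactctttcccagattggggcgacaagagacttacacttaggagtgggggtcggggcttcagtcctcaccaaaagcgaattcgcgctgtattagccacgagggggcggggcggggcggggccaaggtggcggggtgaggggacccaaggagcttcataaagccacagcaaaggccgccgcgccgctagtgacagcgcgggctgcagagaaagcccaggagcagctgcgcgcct
The downstream Foxp3 window held 4 matches, for the ETS motif at position −226 from the start, the NFAT motif at −141, the STAT motif at −139 and the GATA motif at −47. The NFAT and STAT matches overlap and form 1 run of capitals. Over all 32851 start regions of the same length, 35.4% held the ETS motif, 23.4% the NFAT motif, 8.3% the STAT motif and 11.2% the GATA motif. The Tbx21 window held 1 ETS match, and the other 2 windows shown held none of the 8 motifs. A match is a run of letters and not a measured binding site.

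**Figure D1:**
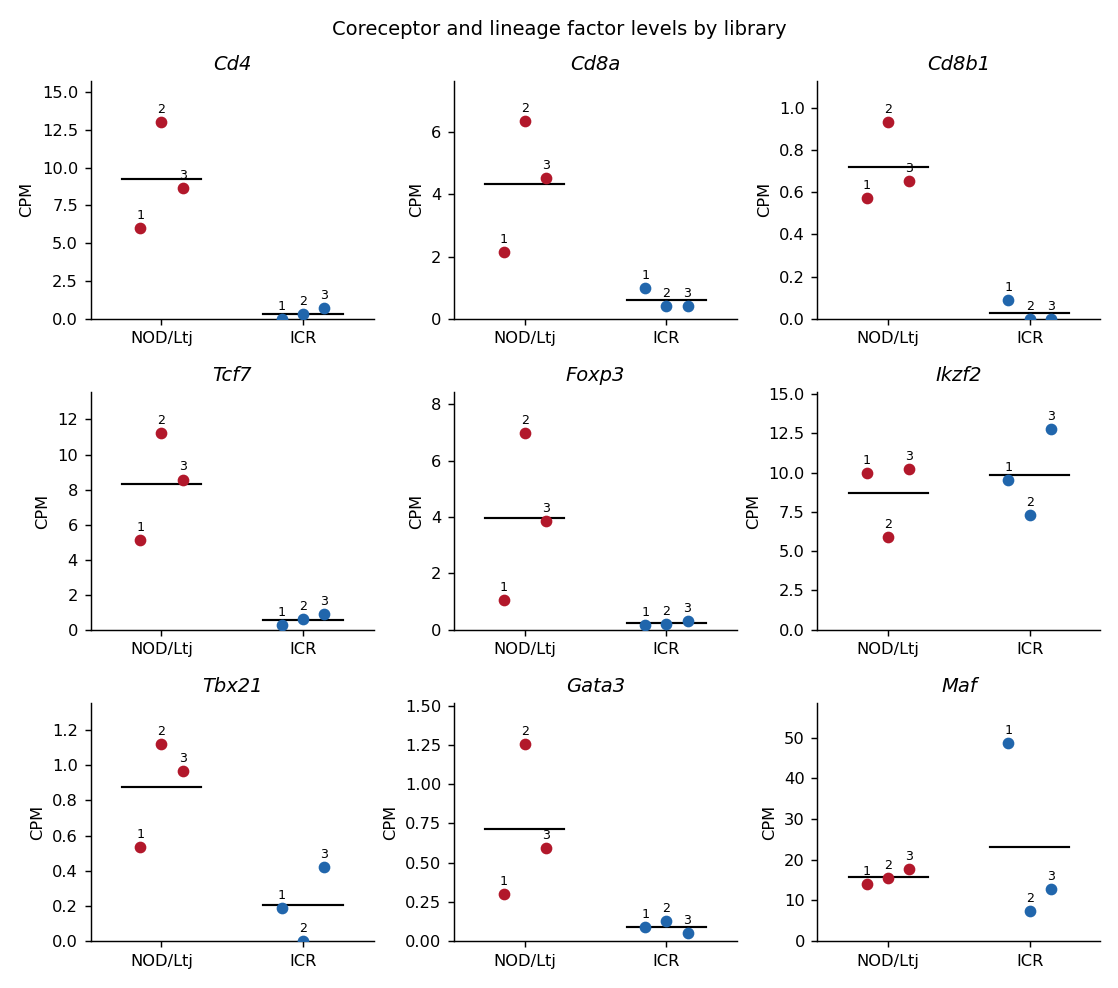
Level of each gene in CPM (vertical axes, each from 0 on its own scale) in the 3 NOD/Ltj and 3 ICR libraries, numbered by replicate, with a line at each mean. For Cd4, Cd8a, Cd8b1, Tcf7, Foxp3, Tbx21 and Gata3 every NOD/Ltj library lies above every ICR library, while for Ikzf2 and Maf the strains overlap.

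Of the 9 genes, Tcf7 and Foxp3 rose in NOD/Ltj and 7 were not called. The test was edgeR's quasi-likelihood test adjusted over all genes tested, of which 1.88% were called higher and 0.361% lower. Without adjustment, 6 of the 9 had p under 0.05 and were higher, where 8.00% of all genes were. For 7 of the 9 genes every NOD/Ltj library was above every ICR library, as it was for 11.2% of all genes tested. The median log2 fold change of the 9 genes was 2.97, and that of all genes tested was −0.03. By DESeq2, 6 of the 9 were called higher, where 4.84% of all genes were. By limma-voom 1 was, where 0.664% were. The share of all genes called higher was 1.83% with RLE scaling, 1.10% with no filter, 2.32% with a mean of at least 1 CPM, 2.70% with counts divided by 4 and 0.696% with the replicate block. With 1 library left out it was 2.10%, 0.577% and 0.621% without ICR 1, 2 and 3, and 2.09%, 0.330% and 0.0572% without NOD/Ltj 1, 2 and 3.

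Both coreceptors had more RNA in every NOD/Ltj library, and neither passed the test. Cd4 stood at 6.02, 13.03 and 8.62 CPM in NOD/Ltj 1, 2 and 3, against 0, 0.275 and 0.734 CPM in ICR 1, 2 and 3. The ICR values rested on 0, 17 and 42 estimated counts, and ICR 1, with none, was the library with the highest macrophage sum. The groups did not overlap. The log2 fold change was 4.80 ± 1.06 (SE, adjusted p = 0.0761, edgeR). Without ICR 1 it was 4.19 and Cd4 was called (adjusted p = 0.0201, edgeR), as it was with counts divided by 4 and rounded to whole fragments (adjusted p = 0.0187, edgeR) and by DESeq2 (adjusted p = 0.0244). Without any of the other 5 libraries it was not called (adjusted p from 0.0914 to 0.27, edgeR), nor by limma-voom (0.107), and without ICR 3 the log2 fold change was 6.09.

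Cd8a stood at 2.13, 6.35 and 4.51 CPM in NOD/Ltj 1, 2 and 3, against 0.997, 0.404 and 0.42 CPM in ICR 1, 2 and 3. ICR 1, without a Cd4 count, had the highest Cd8a level of the ICR libraries. The Cd8a log2 fold change of 2.83 ± 0.56 (SE) lay just outside the threshold (adjusted p = 0.0507, edgeR). Cd8a was called with ICR 1 or NOD/Ltj 1 left out (adjusted p = 0.032 and 0.0363, edgeR) and not without any of the other 4 libraries (adjusted p from 0.161 to 0.197, edgeR). With genes under a mean of 1 CPM removed, its adjusted p was 0.0495 (edgeR), with counts divided by 4 it was 0.0358 (edgeR), and by DESeq2 it was 1.97e-05. Cd8a was not called by limma-voom (0.105), with the replicate block (0.231, edgeR), with no filter (0.0558, edgeR) or with RLE scaling (0.0507, edgeR).

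Cd8b1, the β chain, rested on the fewest counts of the 3 coreceptor genes. It stood at 0.574, 0.934 and 0.651 CPM in NOD/Ltj 1, 2 and 3, against 0.0867, 0 and 0 CPM in ICR 1, 2 and 3. The ICR libraries held 6 estimated counts of it together, against 149 in NOD/Ltj, or about 2 and 37 fragments. In pooled fragments the level in NOD/Ltj was 17.4 times that in ICR, with an exact 95% interval from 4.49 to 149. The fitted log2 fold change was 4.48 ± 1.17 (SE, adjusted p = 0.127, edgeR). Without ICR 1 both remaining ICR libraries were at 0, and Cd8b1 was called (adjusted p = 0.0297, edgeR), as it was by DESeq2 with all libraries (adjusted p = 0.00301). Without any other library it was not called (adjusted p from 0.232 to 0.42, edgeR). Nor was it with the replicate block (0.323, edgeR), with no filter (0.189, edgeR) or by limma-voom (0.101).

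Tcf7, which encodes the T cell factor TCF1, rose in NOD/Ltj and had the smallest adjusted p of the 9 genes. It stood at 5.15, 11.2 and 8.57 CPM in NOD/Ltj 1, 2 and 3, against 0.26, 0.614 and 0.874 CPM in ICR 1, 2 and 3. The lowest NOD/Ltj library was thus several-fold above the highest ICR library. The log2 fold change was 3.84 ± 0.52 (SE), or 14.3-fold (adjusted p = 0.0159, edgeR). Tcf7 was also called by limma-voom (adjusted p = 0.0421) and DESeq2. The call ended without ICR 2 (adjusted p = 0.0707), NOD/Ltj 2 (0.0714) or NOD/Ltj 3 (0.089, edgeR). The overlapping antisense gene A630014C17Rik held 12 counts in NOD/Ltj 2 and 0 in every other library.

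Foxp3, the factor that defines regulatory T cells, rose 17.4-fold and varied most among the NOD/Ltj libraries. It stood at 1.06, 6.99 and 3.85 CPM in NOD/Ltj 1, 2 and 3, against 0.173, 0.21 and 0.297 CPM in ICR 1, 2 and 3. NOD/Ltj 2 held 6.62 times the level of NOD/Ltj 1, while the summed Cd3 chains differed 2.5-fold between the same libraries. The log2 fold change was 4.12 ± 0.72 (SE, adjusted p = 0.0339, edgeR). In pooled fragments, about 218 in NOD/Ltj and 10 in ICR, the levels differed 20.5-fold with an exact 95% interval from 10.9 to 43.3. Without NOD/Ltj 2 the log2 fold change was 3.42. The call held without NOD/Ltj 1 (adjusted p = 0.0088, edgeR) and ended without any other library, from 0.0675 without ICR 1 to 0.134 without NOD/Ltj 3, and by limma-voom (0.256). Foxp3 shares exon bases with 4 annotated genes, and whether the counting used strand is not given in the sources used here. Of these, the oppositely oriented Ccdc22 had 156, 289 and 126 counts in NOD/Ltj 1, 2 and 3 and 411, 192 and 59 in ICR 1, 2 and 3. Flicr, which shares 853 exon bases with Foxp3 on the same strand, had 30, 11 and 51 counts in NOD/Ltj 1, 2 and 3 and 10, 4 and 24 in ICR 1, 2 and 3. Foxp3 itself had 57, 561 and 254 counts in NOD/Ltj 1, 2 and 3 and 12, 13 and 17 in ICR 1, 2 and 3. NOD/Ltj 2, the highest library for Foxp3, was the lowest NOD/Ltj library for Flicr. How the reads were divided between these genes was not tested, and the Foxp3 level is uncertain to that extent.

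Ikzf2, which encodes Helios, did not follow Foxp3. It stood at 10.0, 5.9 and 10.2 CPM in NOD/Ltj 1, 2 and 3, and at 9.53, 7.29 and 12.8 CPM in ICR 1, 2 and 3. The strains overlapped, and NOD/Ltj 2, the library with the most Foxp3, had the least Ikzf2 of all 6. The log2 fold change was −0.18 ± 0.30 (SE, adjusted p = 0.874, edgeR). ICR glands thus held Ikzf2 at about the level of NOD/Ltj glands while their summed Cd3 chains were near 1 CPM.

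Tbx21 and Gata3, the Th1 and Th2 factors, rested on few counts and neither was called. Tbx21 stood at 0.537, 1.12 and 0.969 CPM in NOD/Ltj 1, 2 and 3, against 0.188, 0 and 0.42 CPM in ICR 1, 2 and 3. The groups did not overlap, with the lowest NOD/Ltj library close to the highest ICR library. Its log2 fold change was 2.11 ± 1.08 (SE, adjusted p = 0.487, edgeR), and no setting tried called it.

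Gata3 stood at 0.296, 1.26 and 0.591 CPM in NOD/Ltj 1, 2 and 3, against 0.0867, 0.129 and 0.0524 CPM in ICR 1, 2 and 3. The ICR libraries held about 4 fragments of it together, against 39 in NOD/Ltj, and pooled levels differed 9.17-fold with an exact 95% interval from 3.31 to 35.3. Its log2 fold change was 2.97 ± 0.76 (SE, adjusted p = 0.118, edgeR). By DESeq2 it was called (adjusted p = 0.0129). It was not called by limma-voom (0.321), with the replicate block (0.301, edgeR) or with any library left out (0.097 to 0.522, edgeR). As in Foxp3, NOD/Ltj 2 was far above NOD/Ltj 1, by 4.25 times.

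Maf did not separate the strains. It stood at 13.98, 15.4 and 17.7 CPM in NOD/Ltj 1, 2 and 3, and at 48.8, 7.42 and 12.8 CPM in ICR 1, 2 and 3. Among the ICR libraries ICR 1 was far above the other 2, which lay below every NOD/Ltj library. The log2 fold change was −0.55 ± 0.62 (SE, adjusted p = 0.798, edgeR) and 0.62 without ICR 1 (adjusted p = 0.295, edgeR). The scavenger receptor Cd163 of tissue macrophages stood at 3.57, 1.49 and 1.48 CPM in NOD/Ltj 1, 2 and 3 and at 40.0, 2.52 and 3.27 CPM in ICR 1, 2 and 3. The mannose receptor Mrc1 stood at 10.2, 6.43 and 4.88 CPM in NOD/Ltj and at 58.2, 7.62 and 7.85 CPM in ICR. Across the 6 libraries, as a description, Maf correlated with Csf1r at r = 0.843, Mrc1 at 0.799, Cd163 at 0.797, the epithelial genes Krt8 at 0.711 and Epcam at 0.674, and Cd3e at 0.0283 (n = 6, on log2(CPM + 0.5)). Without ICR 1, a choice made after seeing the data, these values were 0.703, −0.403, −0.402, −0.55, −0.215 and 0.811 in the same order (n = 5). The correlations with Mrc1, Cd163, Krt8 and Epcam thus rested on ICR 1. The part of macrophage or epithelial RNA in the Maf level was not tested.

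**Figure D2:**
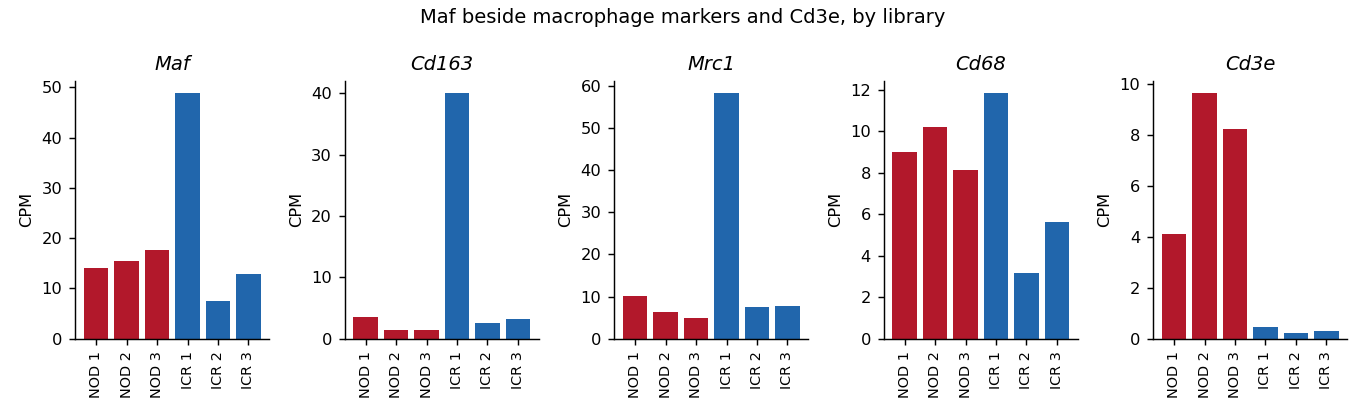
Level in CPM (vertical axes from 0) of Maf, the macrophage genes Cd163, Mrc1 and Cd68 and the CD3 chain gene Cd3e, 1 bar per library, NOD/Ltj libraries on the left of each panel. ICR 1 is the highest bar for Maf (48.8 CPM), Cd163 (40.0 CPM), Mrc1 (58.2 CPM) and Cd68 (11.8 CPM), and the bars of Cd3e are high in NOD/Ltj.

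**Figure D3:**
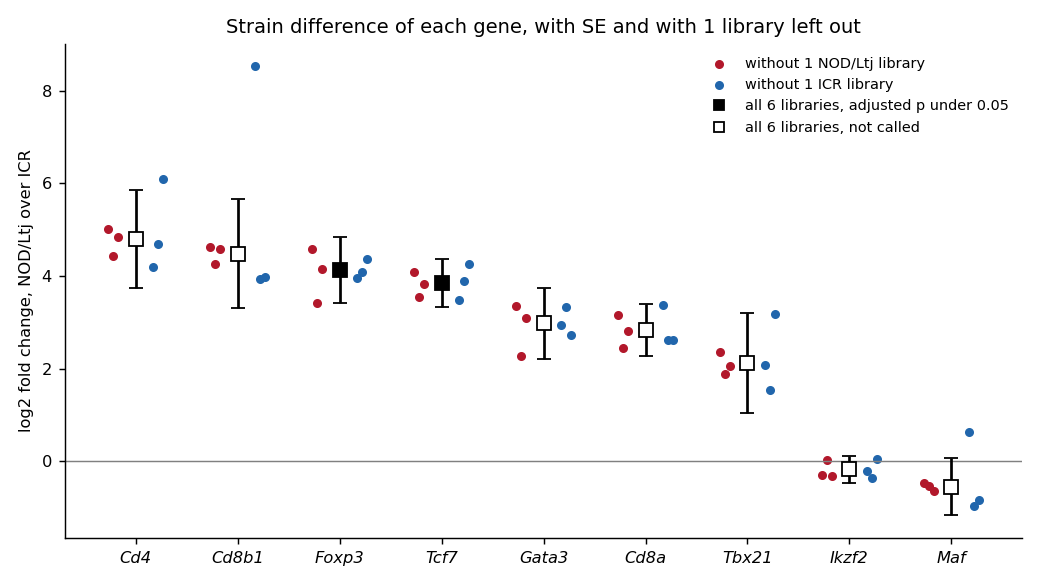
Log2 fold change of NOD/Ltj over ICR (vertical axis) for each gene. Squares give the fit of all 6 libraries with its SE, filled where the adjusted p was under 0.05 (Foxp3 and Tcf7), and dots the fits with 1 library left out. The dot at 8.53 for Cd8b1 is the fit without ICR 1, in which both ICR libraries were at 0, so its height depends on the fitting and is no measure of size.

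Levels of different genes were compared after division by the length of the merged exons of each gene in GENCODE mouse release 21, in CPM per kilobase. In NOD/Ltj the order by mean was Tcf7 (3.17 ± 1.16), Cd4 (2.29 ± 0.88), Maf (1.90 ± 0.23), Cd8a (1.19 ± 0.58), Foxp3 (0.87 ± 0.65), Ikzf2 (0.75 ± 0.21), Cd8b1 (0.49 ± 0.13), Tbx21 (0.35 ± 0.12) and Gata3 (0.18 ± 0.12, SD, n = 3). The ranges of all neighbours in that order overlapped. In ICR the order was Maf (2.79 ± 2.73), Ikzf2 (0.85 ± 0.24), Tcf7 (0.22 ± 0.12), Cd8a (0.17 ± 0.09), Cd4 (0.08 ± 0.09), Tbx21 (0.08 ± 0.08), Foxp3 (0.05 ± 0.01), Gata3 (0.02 ± 0.01) and Cd8b1 (0.02 ± 0.03, SD, n = 3). Maf there was 5.92 in ICR 1, 0.90 in ICR 2 and 1.56 in ICR 3. There Ikzf2 lay above Tcf7 with no overlap, and Foxp3 above Gata3. Maf and Ikzf2 thus had the highest means in ICR, and Tcf7 and Cd4 in NOD/Ltj.

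The genes were set against each other by ratios within each library, in which depth cancels. The strains were compared over 16 ratios on the log2 scale with 4 counts added to each gene, by an exact two-sided permutation test. With 3 libraries against 3, its p cannot go below 0.10. Of the 16 ratios, 11 had groups that did not overlap (exact permutation p = 0.10 each, adjusted p = 0.1455 over the 16), so none passed a threshold of 0.05. With 1 and with 12 counts added, 8 and 10 of the 16 did not overlap. Of the 16 ratios, 9 share the Cd3 denominator.

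Cd4 RNA outweighed Cd8a RNA in every NOD/Ltj library. Per exon length, the ratio of Cd4 to Cd8a was 2.55, 1.85 and 1.72 in NOD/Ltj 1, 2 and 3, against 0, 0.613 and 1.58 in ICR 1, 2 and 3. The 3 NOD/Ltj ratios lay close together and the ICR ratios were spread widely on few counts. On the log2 scale the difference of NOD/Ltj from ICR was 2.45 ± 1.49 (SE, exact permutation p = 0.10) and 1.02 without ICR 1, which had no Cd4 count. Per exon length, the α chain exceeded the β chain of CD8 1.51, 2.77 and 2.83 times in NOD/Ltj 1, 2 and 3, and 4.69 times in ICR 1, the one ICR library with a Cd8b1 count. The log2 difference of Cd8b1 over Cd8a was 0.46 ± 0.31 (SE) with 4 counts added and −0.42 with 12 added, so no direction can be read from it.

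Relative to Cd4, Foxp3 showed no difference between the strains that exceeded the spread. The count ratio of Foxp3 to Cd4 was 0.175, 0.536 and 0.446 in NOD/Ltj 1, 2 and 3, against 0.765 in ICR 2 and 0.405 in ICR 3, with no Cd4 count in ICR 1. The groups overlapped, and the log2 difference was −1.68 ± 1.05 (SE, exact permutation p = 0.20), and −0.77 without ICR 1, whose ratio was set by the added counts. Relative to the Cd3 chains, the count ratio of Foxp3 was 0.0928, 0.246 and 0.163 in NOD/Ltj 1, 2 and 3, against 0.267, 0.206 and 0.298 in ICR 1, 2 and 3. In these counts NOD/Ltj 2 lay inside the ICR range and NOD/Ltj 1 well below it. With 4 counts added the log2 difference was −0.94 ± 0.41 (SE, exact permutation p = 0.10). NOD/Ltj 1 had the least T cell RNA of its strain and also the least Foxp3 for its T cell RNA.

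Of the 7 ratios set between genes, that of Ikzf2 to Foxp3 differed most. The count ratio of Ikzf2 to Foxp3 was 9.47, 0.845 and 2.66 in NOD/Ltj 1, 2 and 3, against 55.0, 34.7 and 43.1 in ICR 1, 2 and 3. All ICR libraries were above all NOD/Ltj libraries, and the log2 difference was −3.65 ± 1.00 (SE, exact permutation p = 0.10). Tbx21 and Gata3 kept no direction between the strains. Their count ratio was 1.81, 0.891 and 1.64 in NOD/Ltj 1, 2 and 3, against 2.17, 0 and 8.0 in ICR 1, 2 and 3, and the log2 difference was 0.01 ± 1.09 (SE, exact permutation p = 1.00). Without ICR 1 the log2 difference of Tbx21 over Gata3 was 0.20. The log2 difference of Tbx21 over Foxp3 was −1.27 ± 0.93 (SE, exact permutation p = 0.30).

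Relative to the summed Cd3 chains, 8 of the 9 genes had lower mean log2 ratios in NOD/Ltj, and 7 did so without overlap. Of all 18537 genes tested, 99.6% had a lower mean ratio to Cd3 and 97.6% did so without overlap, so a lower ratio is not particular to these genes. With 1 count added in place of 4, 7 of the 9 genes were lower and 4 did not overlap. Cd4 over Cd3 was the exception, with count ratios of 0.529, 0.459 and 0.365 in NOD/Ltj 1, 2 and 3 and of 0, 0.27 and 0.737 in ICR 1, 2 and 3. Its log2 difference was 0.74 ± 0.95 (SE, exact permutation p = 0.60) and −0.12 without ICR 1. Tcf7 over Cd3 was 0.453, 0.396 and 0.363 in NOD/Ltj 1, 2 and 3 and 0.4, 0.603 and 0.877 in ICR 1, 2 and 3, and the groups overlapped (log2 difference −0.64 ± 0.30, SE, exact permutation p = 0.20). Cd8a over Cd3 was 0.187, 0.224 and 0.191 in NOD/Ltj 1, 2 and 3, against 1.53, 0.397 and 0.421 in ICR 1, 2 and 3. The NOD/Ltj values were nearly equal and all lay below the ICR values, with a log2 difference of −1.72 ± 0.59 (SE, exact permutation p = 0.10) and of −1.13 without ICR 1. The log2 difference of Maf over Cd3 was −4.50 ± 1.06 (SE, exact permutation p = 0.10), −3.53 without ICR 1 and −5.19 without ICR 2. That of Ikzf2 over Cd3 was −4.59 ± 0.67 (SE, exact permutation p = 0.10).

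**Figure D4:**
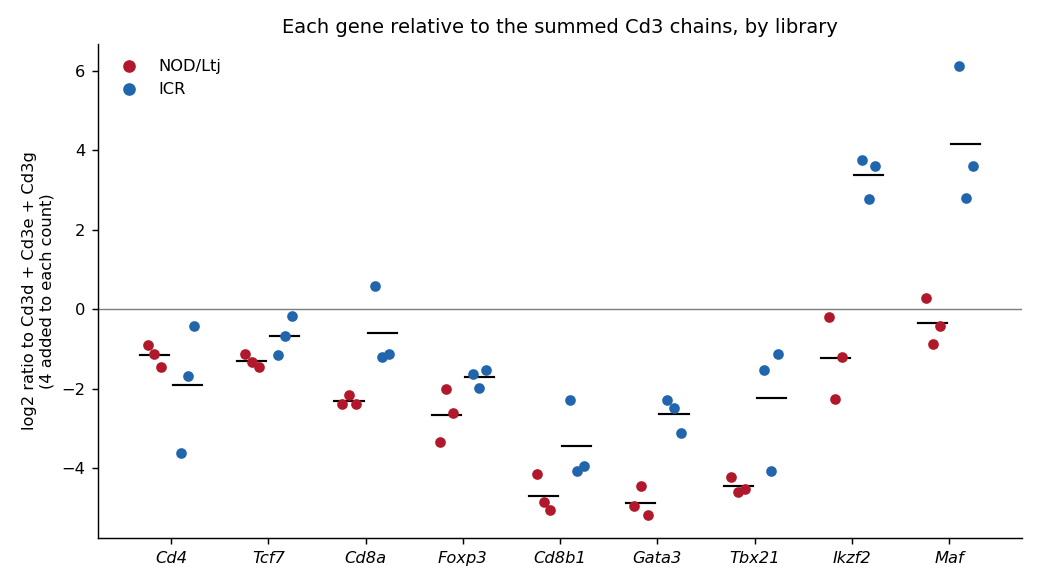
Log2 ratio of each gene to the sum of Cd3d, Cd3e and Cd3g in each library, with 4 counts added to both (vertical axis), NOD/Ltj on the left and ICR on the right for each gene, with a line at each mean. Cd4 and Tcf7 overlap between strains, and Ikzf2 and Maf lie above 2 in every ICR library and below 1 in every NOD/Ltj library.

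Other T cell genes rose with Tcf7 and Foxp3. Of 146 genes on 16 lists of T cell states and of other cell types, 37 were called higher and 1 lower in NOD/Ltj. Not all 146 passed the filter on low counts. Of all genes tested, 1.88% were called higher and 0.361% lower. The count of listed genes called higher moved with single libraries, as did the share of all genes. It was 16 without ICR 2 (0.577% of all genes), 17 without ICR 3 (0.621%), 11 without NOD/Ltj 2 (0.330%) and 0 without NOD/Ltj 3 (0.0572%). It was 37 without ICR 1 (2.10%) and 40 without NOD/Ltj 1 (2.09%).

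Of 7 CD3 and T cell receptor chains 4 rose and 3 were not called, with a median log2 fold change of 4.42. By DESeq2, 7 of these 7 and 9 of the 11 other T cell identity genes below were called higher, where 4.84% of all genes were. Cd3e, Cd3g, Trbc1 and Trbc2 rose by 4.42, 4.78, 3.85 and 4.99 on the log2 scale. Trbc1 and Trbc2 are near copies of each other, so the split of reads between them is uncertain. Of 11 other T cell identity genes 8 rose, among them the adhesion receptor Cd2 (8.69 ± 3.88 CPM in NOD/Ltj and 0.595 ± 0.058 CPM in ICR, SD, n = 3 each) and the kinase Lck, by 4.28 (log2). Cd5, a brake on receptor signals, stood at 2.19, 5.64 and 4.23 CPM in NOD/Ltj 1, 2 and 3, against 0, 0 and 0.0699 CPM in ICR 1, 2 and 3, and was called (adjusted p = 0.016, edgeR). The costimulator Cd28 rose by 2.65 (log2). Thy1, a surface protein also found outside T cells, stood at 11.6, 15.5 and 12.5 CPM in NOD/Ltj 1, 2 and 3 and at 13.5, 9.48 and 12.04 CPM in ICR 1, 2 and 3 (adjusted p = 0.804, edgeR), and was named after its values were seen.

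Factors that steer the choice between CD4 and CD8 fates in the thymus did not separate the strains as a list. Of 11, only Bcl11b rose, by 2.00 ± 0.36 (log2, SE, adjusted p = 0.0367, edgeR), and the call ended without any library other than NOD/Ltj 1 (adjusted p from 0.0563 without ICR 1 to 0.208 without NOD/Ltj 3, edgeR). It also ended with no filter (0.0514, edgeR) and by limma-voom (0.0731). The median log2 fold change of Bcl11b's list was −0.04, and 0.33 without ICR 1. By DESeq2, 3 of the 11 were called higher, where 4.84% of all genes were. For 3 of the 11 every NOD/Ltj library was above every ICR library, as it was for 11.2% of all genes tested. Zbtb7b, which encodes the CD4 lineage factor ThPOK, stood at 41.6, 31.3 and 34.7 CPM in NOD/Ltj 1, 2 and 3 and at 27.2, 44.9 and 58.6 CPM in ICR 1, 2 and 3. The strains overlapped. Runx3, the CD8 lineage factor, stood at 1.28, 2.65 and 1.71 CPM in NOD/Ltj 1, 2 and 3, against 0.39, 0.129 and 0.717 CPM in ICR 1, 2 and 3 (adjusted p = 0.177, edgeR). For Runx3 the groups did not overlap, the log2 fold change was 2.19, and DESeq2 called it (adjusted p = 0.0201). Myb and Tox had log2 fold changes of 2.13 and 1.84 and were not called (adjusted p = 0.13 and 0.581, edgeR). DESeq2 called Myb (adjusted p = 0.00919). The remaining factors ran from −0.39 (Runx1) to 0.26 (Tcf12, log2). Zbtb7b stood at its ICR levels in glands whose summed Cd3 chains were near 1 CPM. The part of T cells in the levels of these factors was not tested. All factors named here except Bcl11b were also named after their values were seen.

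Of all genes tested, 8.00% were higher at an unadjusted p under 0.05 and 4.84% were called higher by DESeq2. Genes of naive and recirculating T cells included 4 of 8 that rose (7 higher at an unadjusted p under 0.05, 6 by DESeq2), and none fell. Among them were the chemokine receptor Ccr7 (log2 fold change 4.23), the interleukin-7 receptor Il7r (2.91) and the egress receptor S1pr1 (1.73). B cells also use Ccr7 and S1pr1, and 7 of 8 B cell markers rose as well, with summed levels of 119, 492 and 332 CPM in NOD/Ltj 1, 2 and 3 and of 2.57, 5.54 and 6.17 CPM in ICR 1, 2 and 3. The B cell gene Ms4a1 rose by 6.71 (log2). Their part in these levels was not tested.

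The helper types were described by 4 lists, which were not tested against each other. Of 9 Th1 genes tested 3 rose, among them the signal transducer Stat4 (5.11) and the interleukin-18 receptor Il18r1 (2.15, log2). Of the 9, 8 were higher at an unadjusted p under 0.05 and 8 by DESeq2, where 8.00% and 4.84% of all genes were. Of 9 follicular helper genes 4 rose (6 higher at an unadjusted p under 0.05, 5 by DESeq2). The 4 were the chemokine receptor Cxcr5 (5.13), the costimulator Icos (3.40), the checkpoint receptor Pdcd1 (3.42) and the adaptor Sh2d1a, which had under 4 counts in each ICR library. Cxcr5 is also a gene of B cells, whose markers rose as given above, and their part in its level was not tested. Of 9 Th2 genes only 3 passed the filter, and the receptor Il4ra rose by 1.35 (log2). The part of B cells in the Il4ra level was not tested. Stat6 (0.14) and Il1rl1 (−0.60, log2) were not called. Il4, removed by the filter, had 4, 7 and 9 counts in NOD/Ltj 1, 2 and 3. In ICR 1, 2 and 3 it had 52, 11 and 11. Ccr8, also removed, had 10, 25 and 20 counts in NOD/Ltj 1, 2 and 3 and 0 in every ICR library. Stat6, Il1rl1, Il4 and Ccr8 were named after their values were seen. Il13 held 0 counts in all 6 libraries. Of 7 Th17 genes tested none was called (1 at an unadjusted p under 0.05 and 1 by DESeq2). Il17a held 8 counts in NOD/Ltj 2 and 0 in the other libraries, and Il17f and Il22 held 0 in all 6. The more abundant Th17 genes Stat3 and Rora had log2 fold changes of −0.06 and −0.40.

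Of 12 other genes of regulatory T cells 4 rose with Foxp3 and 8 were not called. Of the 12, 5 were higher at an unadjusted p under 0.05 and 5 by DESeq2. The checkpoint receptor Ctla4 rose by 4.40 ± 0.74 and the costimulator Tnfrsf4 by 2.57 ± 0.38 (log2, SE), and the interleukin-2 receptor chain Il2rb by 3.40 ± 0.58. Izumo1r, the folate receptor FR4, stood at 0.556, 3.16 and 2.92 CPM in NOD/Ltj 1, 2 and 3, against 0, 0.0646 and 0.0699 CPM in ICR 1, 2 and 3. Its lowest NOD/Ltj library was again NOD/Ltj 1. Il2ra, the interleukin-2 receptor chain CD25, stood at 1.83, 2.98 and 1.68 CPM in NOD/Ltj 1, 2 and 3, and at 2.35, 0.372 and 1.01 CPM in ICR 1, 2 and 3 (adjusted p = 0.696, edgeR). It was named after its values were seen. Of 10 cytotoxic genes Ccl5 and Ctsw rose, by 2.95 ± 0.26 and 3.05 ± 0.48 (log2, SE), and 8 were not called. Of the 10, 6 were higher at an unadjusted p under 0.05 and 5 by DESeq2, where 8.00% and 4.84% of all genes were. For 8 of the 10 every NOD/Ltj library was above every ICR library, as it was for 11.2% of all genes tested.

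Markers of other cells that can carry these genes were measured beside them. Of all genes tested, 8.00% were higher at an unadjusted p under 0.05 and 4.84% were called higher by DESeq2. Dendritic cells, of which some carry CD8α or CD4, had 0 of 9 markers called (5 higher at an unadjusted p under 0.05, 4 by DESeq2), with summed levels of 38.4, 71.5 and 53.9 CPM in NOD/Ltj 1, 2 and 3 and of 21.8, 17.2 and 29.1 CPM in ICR 1, 2 and 3. Natural killer and innate lymphoid markers had 0 of 7 called (2 higher at an unadjusted p under 0.05, 1 by DESeq2), with sums of 8.54, 10.6 and 9.65 CPM in NOD/Ltj 1, 2 and 3 and of 10.4, 4.31 and 7.59 CPM in ICR 1, 2 and 3. Macrophage markers had 0 of 10 called (1 higher at an unadjusted p under 0.05, 0 by DESeq2). Without ICR 1, 3 were called higher, namely C1qa, C1qb and C1qc, where 2.10% of all genes were. Duct and basal epithelial markers had 0 of 9 called (0 higher at an unadjusted p under 0.05, 0 by DESeq2), with sums from 393 to 470 CPM in NOD/Ltj and from 445 to 830 CPM in ICR. Of 7 acinar markers the tear protein gene Prol1 fell by 4.95 on the log2 scale. How much of each coreceptor or factor came from these cells was not tested.

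Across the 6 libraries the genes whose levels ran most like each member are given as a description. Pearson's r was taken on log2(CPM + 0.5) among genes with a mean of at least 1 CPM, and all libraries share the strain contrast. Cd4 ran closest to Gbp8 (r = 0.999), AI504432 (0.997) and Tcf7 (0.997). Tcf7 ran close to Gbp8 (0.999) and Fcrla (0.999). Cd8a ran closest to Hvcn1 (0.999), Cytip (0.998) and Rcsd1 (0.998), and Cd8b1 to Slamf7 (0.997), Tgtp2 (0.996) and Sp110 (0.995). Foxp3 ran closest to Jhy (0.999), Arhgef1 (0.998) and Bcl11a (0.998), Gata3 to Cpne4 (0.997), Cbfa2t3 (0.993) and Snn (0.99), and Tbx21 to Zbtb46 (0.999), Itgax (0.996) and Bach2 (0.991). The closest genes to Ikzf2 were Ankrd39 (0.985) and Fip1l1 (0.983), and to Maf Hsd3b7 (0.994), Efcab14 (0.993) and Syde1 (0.991). These values include ICR 1, the highest library for Maf, and were not taken without it. Between members, Foxp3 and Gata3 correlated at r = 0.976 and Cd8a and Cd8b1 at r = 0.974, while Ikzf2 had negative values with the 7 genes that were higher in NOD/Ltj, from −0.087 (Tbx21) to −0.634 (Gata3).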

How the data were processed

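The authors deposited 1 table of estimated counts per gene for 6 libraries, whole numbers with no scaling across libraries. As tools, fastp, StringTie and edgeR appear in the submitters' processing notes, with no version or role. Not given in the sources used here were the aligner, the build and the use of strand in counting. Totals ran from 58426580 to 76554340 counts per library. Per the labels' protocols the libraries were strand-specific and paired-end. Titles write MOD where the genotype label gives NOD/Ltj. Between 30.9 and 32.2% of values from 1 to 32 were multiples of 4 (25% without steps), and 1 fragment was taken as 4 counts, which sets the pooled intervals. Symbols came from GENCODE mouse release 21 (55141 of 55401 identifiers), which also gave exon lengths. It may not be the annotation the counts were made with.

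The tool for differences between strains was edgeR 4.0.16 under R 4.3.3 (quasi-likelihood test, TMM, filterByExpr, two-sided, all 6 libraries, Benjamini-Hochberg over 18537 genes). Each SE was taken as the size of the log2 fold change over the root of its F statistic. Alternatives were DESeq2 1.42.0, limma-voom (limma 3.58.1), DESeq2-type (RLE) size factors, 2 other filters, counts divided by 4, a replicate block and 1 library left out. Every p-value rests on the spread among the samples as labelled, which may be technical. Ratios were compared by exact permutation with 1 and 12 added counts as alternatives.

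The members and the lists were chosen with earlier results of these data known. Named genes were all members, up to 5 called genes of each list (or the 2 most abundant where none was called), the denominators of ratios and the 3 genes most correlated with each member. Cd163, Mrc1 and Cd68, and genes so marked in the text, were named after their values were seen. The lists without calls are given by their sums. Some genes that these rules name are not reported here.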

Additional observations from a re-analysis of the deposited data

How the results depend on the processing

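Of the 9 genes, 2 were called higher with all libraries and TMM scaling. That count was 6 by DESeq2, 1 by limma-voom, 4 with counts divided by 4 and 1 with the replicate block, and it ran from 0 to 4 with 1 library left out (4 without ICR 1, 3 without NOD/Ltj 1, 1 without ICR 3, 0 without ICR 2, NOD/Ltj 2 or NOD/Ltj 3). It was 2 with RLE scaling or no filter and 3 with the stricter filter, which, like the division by 4, removed Cd8b1, Tbx21 and Gata3. Of the listed genes 37 were higher and 1 lower. The higher count was 62 by DESeq2, 10 by limma-voom and 22 with the replicate block, and ran from 0 to 40 with 1 library left out. The lower count was 0 by limma-voom and with the replicate block, and from 0 to 1 with 1 library left out. The direction of Ikzf2 turned without ICR 3 (0.0494) and without NOD/Ltj 2 (0.0236), in a range from −0.36 to 0.0494 with 1 library left out, and that of Maf without ICR 1, in a range from −0.98 to 0.62 (log2), neither called in any fit. Cd4, Cd8a, Cd8b1, Tcf7, Foxp3, Tbx21 and Gata3 kept their direction in every fit that tested them.

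Ratios of scarce genes depended on the counts added. With 12 added, the log2 difference of Cd8b1 over Cd8a became −0.42 and that of Tbx21 over Gata3 −0.00735, and with 1 added that of Cd8b1 over Cd3 became 0.0845. With 1 library left out, Tbx21 over Gata3 ran from −0.97 (without ICR 2) to 0.82, and Cd4 over Cd3 from −0.12 (without ICR 1) to 1.48. The remaining ratios kept their direction. The causes were not tested.

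Deviations from the strain means of same-numbered libraries correlated at r = −0.161, −0.189 and 0.118 for numbers 1, 2 and 3. Those of differently numbered libraries ran from −0.116 to 0.223. With 3 libraries per strain these values cannot decide whether replicate numbers pair the samples. With the replicate block Tcf7 was called (3.91, adjusted p = 0.0219, edgeR), Foxp3 was not (3.79, adjusted p = 0.0892, edgeR), and the ratios had exact sign-flip permutation p of at least 0.25, the smallest that 3 pairs allow. Low counts in ICR limit Cd8b1, Tbx21 and Gata3 most.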
